A study of Mus musculus with 8 samples.

Results

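The interleukins and their receptors were examined in the GD3.5 mouse uterus as 78 genes, chosen as every gene of the expression table whose symbol begins with Il and a digit, apart from Il15, Il15ra, Il2rb, Il2rg, Il6st and Il13ra2. The table holds 24963 genes. The set comprises 36 ligands, 5 soluble antagonists or decoy receptors, 34 receptor chains and 3 other genes that only carry the symbol. The rule uses symbols and no measured value.

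An RNA-seq library was made from the whole uterus of each of 4 control mice (Nr2f2 f/f, with both alleles floxed but no Cre, labelled wild type) and 4 Nr2f2 d/d mice (Pgr Cre/+; Nr2f2 f/f). NR2F2 is an orphan nuclear receptor of the uterine stroma, and the Cre knocked into 1 Pgr allele deletes it only from cells that have expressed the progesterone receptor. The labels give the strain C57B6/J for both groups, no treatment, mating at 8 weeks and collection at gestation day 3.5, and the study mated the females to vasectomized males, so that no embryo was present. Nr2f2 itself had 21.8 to 25.7 FPKM in the controls and 6.90 to 9.74 in Nr2f2 d/d (log2 difference -1.39, limma adjusted p = 0.00549), and the uterine markers Pgr, Esr1, Hoxa10 and Hoxa11 were present in every library. FPKM divides the fragments of a gene by its length and by the library total, so levels of different genes can be set beside each other. Fold changes below are Nr2f2 d/d over control on the scale log2(FPKM + 0.5).

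Interleukins are small secreted proteins with which immune cells and the epithelium, stroma and vessels around them signal to each other. Most are read by pairs of receptor chains: those of the IL2, IL4, IL6, IL10 and IL12 families pass the signal through JAK kinases and STAT factors, and those of the IL1 and IL17 families through the adaptors MYD88 or TRAF3IP2 to NF-kB. In the uterus IL11 and its receptor are needed for the stroma to decidualize, and several IL1 family proteins, among them IL33 and the IL36 proteins, are alarm signals released by epithelial and stromal cells.

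Receptors were measured well and most ligands poorly. The filter for the test, 0.5 FPKM on average across the 8 libraries, was passed by 37 members. These were 24 of the 34 receptor chains but 11 of the 36 ligands, with 2 of the 5 antagonists or decoys. Of the rest, 30 were measured under that filter, 9 had group means under the worth of 3 fragments in both groups (Il2, Il13, Il17a, Il17f, Il21, Il22, Il31, Il1f10 and Il1rapl2), and 2 were listed at 0 in every library (Il3 and Il11ra2). All 1224 of the 76-base stretches in the Il11ra2 transcripts also occur in transcripts of Il11ra1 or Gm13305, and 35.6% of those of Il11ra1 are shared in the same way, so the level of Il11ra1 is uncertain and the 0 of Il11ra2 cannot be read.

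In the comparison of genotypes by limma, 0 of the 37 tested members had an adjusted p under 0.05, against 2.62% of the 14323 genes tested (1.09% higher and 1.53% lower in Nr2f2 d/d). At an unadjusted p under 0.05 there were 8 members, or 21.6%, against 21.2% of all genes. Il4ra, Il12rb1, Il17re, Il18bp, Il20rb and Il33 were the 6 higher in Nr2f2 d/d, a direction that 8.66% of all genes showed, and Il17rd and Il27ra were the 2 lower, as were 12.5% of all genes. With a fold of 1.4 or more required as well, the threshold of the study's methods, there were 5 of 37 (13.5%) against 8.8% of all genes. Il4ra, Il12rb1, Il17re and Il33 were the 4 higher, against 4.7% of all genes, and Il17rd the 1 lower, against 4.1%. Il33 was past this threshold in only 1 of the 8 fits that left out 1 library, that without Nr2f2 d/d replicate 4, and Il17re in 4 of them. Log2 fold changes were above 0 for 26 of the 37 members (70.3%) and for 46.7% of all genes tested, with a median of 0.11 over the members and -0.02 over all genes. The members' median was 0.048 without control replicate 1, which held the lowest value of 10 tested members, 0.056 without control replicate 4 and 0.071 without Nr2f2 d/d replicate 1, and the median deviations of the control libraries had an SD of 0.0896. Over the 76 members with any fragments the median was 0.04.

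**Figure D1:**
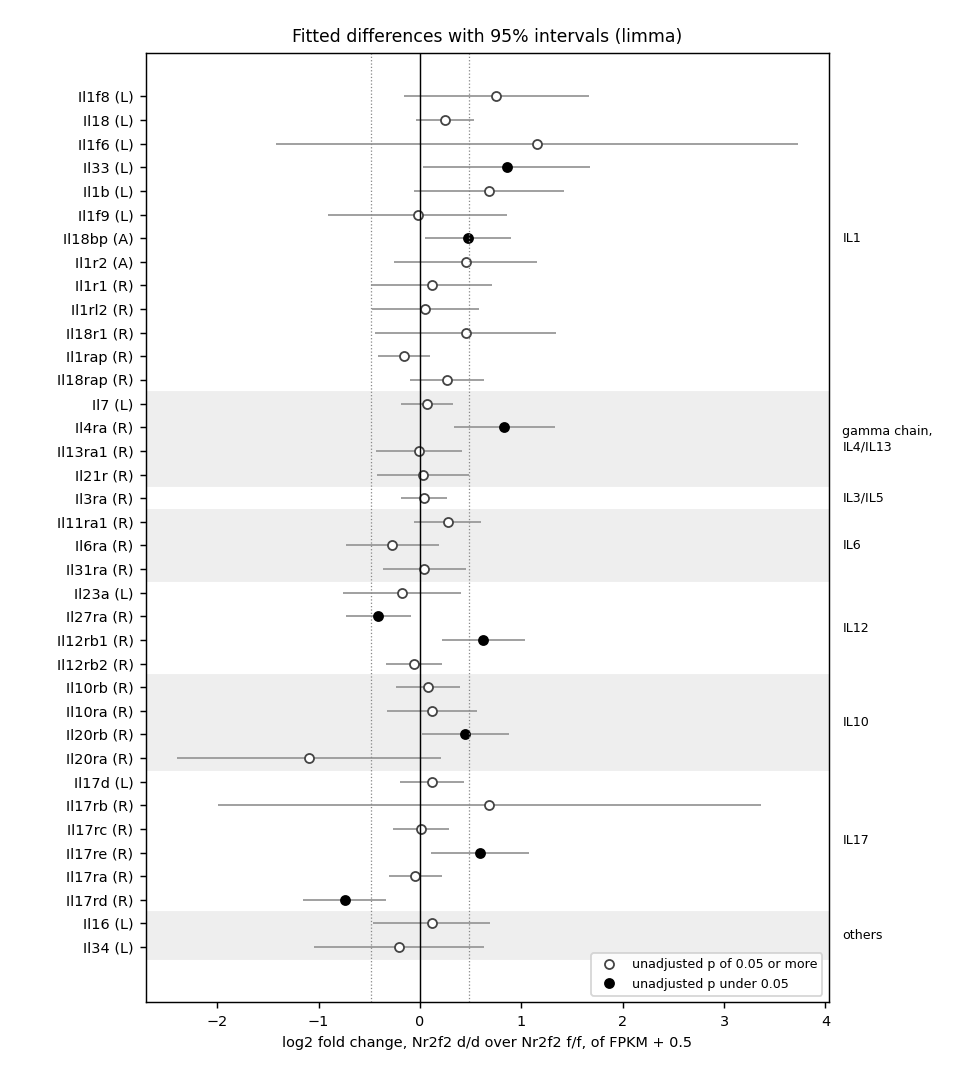
Log2 fold change (Nr2f2 d/d over Nr2f2 f/f, FPKM + 0.5) of the 37 tested members with 95% intervals from limma, grouped by cytokine family (L ligand, A antagonist or decoy, R receptor). Filled circles are the 8 members with an unadjusted p under 0.05 and dotted lines mark a fold of 1.4. IL1 family ligands lie mostly to the right, and Il17rd is the only filled circle beyond the dotted line on the left.

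The bases before the transcription start are shown for 4 of these 8 members, Il4ra and Il17rd because their p-values were the smallest and Il33 and Il18bp because their stretches hold letters of the motifs searched. They are the 250 bases before each start annotated by RefSeq on GRCm38.p6, written 5' to 3' on the strand of the gene. Capitals mark the letters AGGTCA or GGGTCA, the half-site that NR2F2 and related nuclear receptors recognize, and TTC followed by GAA with 3 or 4 bases between them, the spaced palindromes that STAT factors recognize, on either strand.
Il4ra, chr7:125552021-125552270, plus strand: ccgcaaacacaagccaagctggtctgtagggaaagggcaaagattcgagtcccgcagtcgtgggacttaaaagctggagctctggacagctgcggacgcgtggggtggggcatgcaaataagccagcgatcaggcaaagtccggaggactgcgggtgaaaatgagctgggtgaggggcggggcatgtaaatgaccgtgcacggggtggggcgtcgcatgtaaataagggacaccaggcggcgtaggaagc
Il17rd, chr14:27038751-27039000, plus strand: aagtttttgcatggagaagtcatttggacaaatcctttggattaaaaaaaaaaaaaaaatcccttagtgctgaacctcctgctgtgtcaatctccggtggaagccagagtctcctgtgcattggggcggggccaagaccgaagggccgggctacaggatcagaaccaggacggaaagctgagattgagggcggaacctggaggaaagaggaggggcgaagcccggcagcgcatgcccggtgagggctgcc
Il33, upstream start, chr19:29924863-29925112, plus strand: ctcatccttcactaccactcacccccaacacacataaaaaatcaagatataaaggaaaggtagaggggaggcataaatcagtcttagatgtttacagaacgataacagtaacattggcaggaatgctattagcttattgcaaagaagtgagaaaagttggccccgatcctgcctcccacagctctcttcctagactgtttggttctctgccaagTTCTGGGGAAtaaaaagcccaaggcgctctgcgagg
Il33, downstream start, chr19:29945540-29945789, plus strand: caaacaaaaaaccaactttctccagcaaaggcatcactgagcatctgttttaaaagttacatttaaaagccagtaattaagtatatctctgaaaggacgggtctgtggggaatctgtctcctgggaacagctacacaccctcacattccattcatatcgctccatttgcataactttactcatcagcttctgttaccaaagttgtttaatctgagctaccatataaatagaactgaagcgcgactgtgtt
Il18bp, chr7:102018233-102018482, minus strand: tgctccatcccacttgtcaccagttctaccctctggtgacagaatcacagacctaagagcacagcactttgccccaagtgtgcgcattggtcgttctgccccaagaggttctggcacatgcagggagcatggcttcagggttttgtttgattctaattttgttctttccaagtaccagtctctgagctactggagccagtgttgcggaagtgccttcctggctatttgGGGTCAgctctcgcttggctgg
The stretches before Il4ra and Il17rd hold none of these letters, nor do those of Il17re and Il20rb, which are not shown, and no stretch of Il12rb1 or Il27ra was examined. Of the 7 stretches of these members, 1 thus held a half-site and 1 a palindrome. The stretch before Il18bp holds 1 half-site that begins 22 bases before the start, and the upstream start of Il33 has 1 palindrome with 4 bases between its arms, beginning 36 bases before the start. Half-sites were in 20 of the 77 stretches of 63 members in the table (26.0%) and in 23.8% of all 32851 stretches. The palindrome with 4 spaced bases, the form preferred by the IL4 and IL13 factor STAT6, was in 15 stretches of 12 members (19.5%), against 5.85% of all. Among these 12 were Il4, Il9, Il18, Il18r1, Il18rap, Il1rn and Il20ra as well as Il33. The palindrome with 3 spaced bases was in 9 stretches (11.7%), against 7.02% of all. A match of letters is not a bound site, and a stretch of this length says nothing of elements further away.

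The highest mean level in the set belonged to a receptor chain of the IL17 family, and most other abundant members were receptor chains too. Il17rb, the chain that binds IL25 and IL17B, had a mean of 171.8 FPKM over the 8 libraries, and Il11ra1, the receptor of IL11, had 38.6 FPKM. Il11ra1 was nevertheless above Il17rb in control replicate 2 (27.4 against 6.88 FPKM) and in Nr2f2 d/d replicate 3 (49.96 against 43.6 FPKM). A group of chains followed between 12.3 and 18.7 FPKM: Il4ra (18.7), Il17rc (17.6), Il13ra1 (15.1), Il1r1 (14.8), Il10rb (14.8), Il17re (14.4) and Il3ra (12.3). Neighbours in this order overlapped in their libraries, while every Il17rc library (14.9 to 21.1 FPKM) was above every Il3ra library (11.0 to 13.9). This order is of means over both genotypes: in the controls alone Il4ra had a mean of 13.2 FPKM, below Il17rc (17.6), Il13ra1 (15.1), Il10rb (14.5) and Il1r1 (14.2), and Il17re one of 11.5, below Il3ra (12.1). The most abundant ligands over both genotypes were Il1f8, which encodes IL36 beta, at 9.19 FPKM, Il17d at 5.26 and Il16 at 5.10. In Nr2f2 d/d alone the ligand Il1f6 had a mean of 5.61 FPKM, with libraries from 0.10 to 12.1, above the means of Il17d (5.51) and Il16 (5.28). The median of the tested ligands was 2.25 FPKM and that of the tested receptors 4.04 FPKM.

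**Figure D2:**
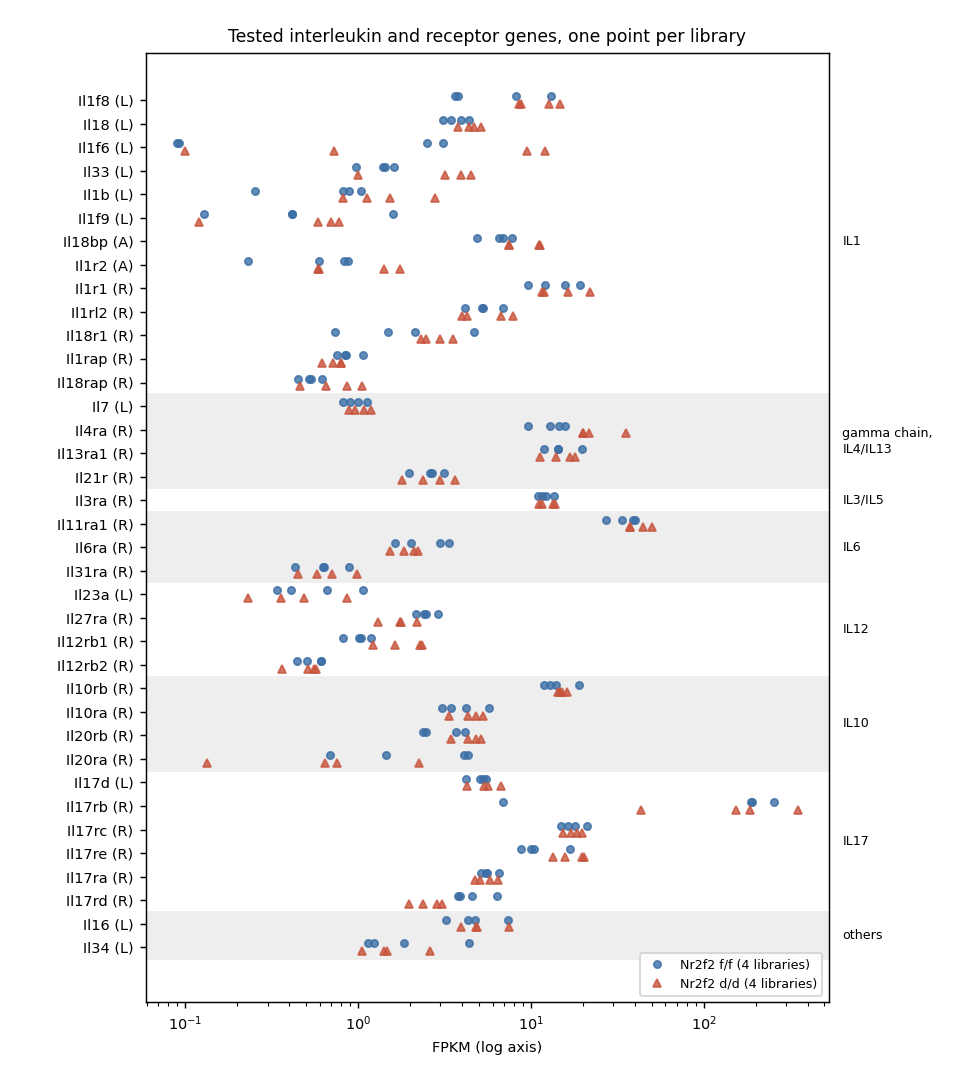
FPKM (log axis) of each of the 37 tested members in every library, circles for Nr2f2 f/f and triangles for Nr2f2 d/d, grouped by family (L ligand, A antagonist or decoy, R receptor). Il17rb reaches 350 FPKM but has a circle at 6.88 and a triangle at 43.6, and the groups of Il4ra, Il12rb1 and Il17rd do not overlap.

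Among the receptors that read IL4 and IL13, the shared chain Il4ra had higher values in Nr2f2 d/d, and its partner Il13ra1 had like values in both groups. Il4ra encodes the alpha chain that pairs with the common gamma chain for IL4 and with IL13RA1 for IL4 or IL13. It had 12.9, 9.60, 15.8 and 14.6 FPKM in control replicates 1 to 4 and 19.9, 21.7, 35.4 and 20.02 FPKM in replicates 1 to 4 of Nr2f2 d/d, the order kept for all genes below. Each Nr2f2 d/d library was above each control library, with replicate 3 far above the other three. The log2 fold change was 0.83 (95% interval 0.34 to 1.33, adjusted p = 0.0815 from limma, unadjusted p = 0.0047). Without Nr2f2 d/d replicate 3 it was 0.64, and 7.93% of the 76-base stretches of Il4ra are shared with Gm44876. Il13ra1 had 19.8, 11.9, 14.3 and 14.4 FPKM in the controls and 16.9, 14.0, 17.9 and 11.2 in Nr2f2 d/d, a log2 difference of -0.01 with a 95% interval of -0.43 to 0.42. Nonoverlapping groups were found for 3 of the 37 tested members (8.11%), against 15.4% of all genes tested: 2 lay higher in Nr2f2 d/d, against 5.49% of all genes, and 1 lower, against 9.91%.

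The ligands of these chains were at the edge of what the depth could show. Il4 had 0.075, 0.039, 0.107 and 0.193 FPKM in the controls and 0.134, 0.033, 0.038 and 0.065 in Nr2f2 d/d, with overlapping groups. Il13 had 4, 2, 1 and 2 fragments in the controls and 4, 0, 2 and 0 in Nr2f2 d/d by the recovered depths, with both group means under the worth of the 3 fragments that a count of 0 allows (0.0405 FPKM in the smallest library). Il4 had an exact permutation p of 0.4, and a difference in Il13 was not detectable at this depth. The other tested genes of the common gamma chain family were Il21r and Il7, a survival signal of lymphocytes, which had 0.996, 1.13, 0.893 and 0.824 FPKM in the controls and 1.08, 1.19, 0.883 and 0.963 in Nr2f2 d/d, overlapping. The chain Il2ra, the high affinity IL2 receptor of activated and regulatory T cells, was under the filter with 0.204, 0.444, 0.417 and 0.235 FPKM in the controls and 0.673, 0.551, 0.480 and 0.492 in Nr2f2 d/d. Its groups did not overlap (two-sided exact permutation p = 0.0286, the smallest that 4 against 4 can give, and 0.223 after adjustment over all genes so tested). Under the filter, 2 of 39 members (5.13%) had nonoverlapping groups, against 7.38% of the 6747 genes there.

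Of the 15 genes listed as responding to IL4 and IL13 through STAT6, 10 were tested. An adjusted p under 0.05, which 2.62% of all genes had, was found for 1 of them. This was Cish, a brake on cytokine receptors that STAT5 also induces, with 6.99, 4.65, 6.46 and 4.93 FPKM in the controls and 11.2, 10.1, 8.73 and 8.60 in Nr2f2 d/d. It rose by 0.71 on the log2 scale without overlap (limma adjusted p = 0.0481). Socs1, another such brake, had 8.09 ± 1.88 FPKM (SD, n = 4) in the controls and 13.0 ± 3.91 (SD, n = 4) in Nr2f2 d/d, with its highest library, at 18.7 FPKM, again Nr2f2 d/d replicate 3 (adjusted p = 0.172). Of these 10 genes, 8 had a log2 fold change above 0, against 46.7% of all genes, and 4 an unadjusted p under 0.05, against 21.2% of all genes. The stromal collagen gene Col1a1 was likewise highest in Nr2f2 d/d replicate 3, at 1141 FPKM against 313.8 to 532.6 in the other Nr2f2 d/d libraries and 118.8 to 222.0 in the controls. The summed stromal markers ran from 1168 to 1466 FPKM in the controls and from 1821 to 3549 in Nr2f2 d/d, sums carried mostly by Col1a1, Col3a1 and Dcn. The stromal list went both ways: of its 7 genes 4 had a log2 fold change above 0, against 46.7% of all genes. Dcn alone was under an adjusted limma p of 0.05 (0.0192), against 2.62% of all genes, and Pdgfra (-0.20), Hoxa10 (-0.09) and Hoxa11 (-0.18) lay below 0. The part of stromal cells in the Il4ra difference was not tested. In whole tissue, more or fewer cells of a type and more or less RNA per cell cannot be told apart.

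A list of 28 genes held JAK, STAT, IRAK and related genes that carry the signal of these receptors inward, and brakes on it such as Socs1 and Cish. Of the 28, 6 had an unadjusted p under 0.05, a share close to the 21.2% of all genes. With an adjusted p under 0.05, 2 rose and 0 fell, against 1.09% and 1.53% of all genes. The 2 that rose were Cish, a brake, and Stat5a, the STAT factor of the IL2, IL3, IL5 and IL7 receptors and of prolactin. Stat5a had 8.26, 6.74, 8.55 and 8.07 FPKM in the controls and 14.1, 13.0, 12.8 and 13.6 in Nr2f2 d/d, a log2 difference of 0.73 (limma adjusted p = 0.00894) with groups that did not overlap. Its twin Stat5b had 7.24 ± 0.529 FPKM (SD, n = 4) in the controls and 7.92 ± 0.503 (SD, n = 4) in Nr2f2 d/d, and Stat6, the factor of IL4 and IL13, had 23.4 ± 1.93 and 23.7 ± 1.79 FPKM (SD, n = 4 each, in the same order). The other 26 genes of the list had adjusted p-values of 0.12 or more.

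In the IL17 family Il17rd had lower values in Nr2f2 d/d and Il17re higher ones, with neither under the adjusted threshold. Il17rd encodes a chain that binds no known interleukin by itself and is best known as a brake on FGF receptor signalling. It had 4.58, 6.40, 3.91 and 3.79 FPKM in the controls and 2.85, 2.37, 1.97 and 3.05 in Nr2f2 d/d. All 4 Nr2f2 d/d libraries were below all control libraries (log2 fold change -0.74, 95% interval -1.16 to -0.33, adjusted p = 0.0701 from limma, the smallest of any member). Il17re, the epithelial chain for IL17C, had 8.71, 16.8, 10.5 and 10.0 FPKM in the controls and 20.3, 19.7, 15.9 and 13.4 in Nr2f2 d/d. Control replicate 2 lay among the Nr2f2 d/d libraries (log2 fold change 0.60, 95% interval 0.11 to 1.08, adjusted p = 0.166), and without that library the log2 fold change was 0.79 and the adjusted p 0.0491, against up to 0.34 with another library left out. The shared chains Il17ra and Il17rc had log2 fold changes of -0.04 (95% interval -0.31 to 0.22) and 0.01 (95% interval -0.27 to 0.29).

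Endothelial markers were lower beside Il17rd. All 6 tested had a log2 fold change below 0, while 46.7% of all genes lay above 0. Of these 6, 4 fell with an adjusted p under 0.05, Pecam1, Cdh5, Kdr and Emcn, against 1.53% of all genes. Sums of the list ran from 168.9 to 240.1 FPKM in the controls and from 98.2 to 121.9 in Nr2f2 d/d. The epithelial markers went the way of Il17re, 6 of 6 with a log2 fold change above 0, against 46.7% of all genes. Krt8 was the 1 that rose with an adjusted p under 0.05, against 1.09% of all genes. The epithelial sums were 444.7 to 527.5 FPKM in the controls and 616.7 to 747.1 in Nr2f2 d/d. Most of the gap between these sums was Krt8 and Krt19, with means of 114.5 and 65.6 FPKM in the controls and 192.3 and 164.1 in Nr2f2 d/d, while Epcam and Krt18 had log2 fold changes of 0.06 each with overlapping groups. No marker of either list was at 0. The part of these cell types in the receptor differences was not tested.

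Il17rb varied widely between mice of each genotype. It had 189.8, 6.88, 188.0 and 255.1 FPKM in the controls and 154.3, 186.4, 43.6 and 350.1 in Nr2f2 d/d. Control replicate 2 and Nr2f2 d/d replicate 3 were the low libraries of their groups, which overlapped. The log2 fold change of 0.68 had a 95% interval of -1.998 to 3.36, and without control replicate 2 it was -0.53. Myd88, the adaptor of the IL1 family receptors, was low in the same libraries, with 21.5 FPKM in control replicate 2, 28.7 in Nr2f2 d/d replicate 3 and 81.8 to 210.6 in the other six. Areg, which encodes the epithelial growth factor amphiregulin and is induced by progesterone, had 0.04 and 0.142 FPKM in these libraries and 1.39 to 19.2 in the others. The 4 gland markers did not move as one. The proteases Prss28 and Prss29 were at their highest in control replicate 2, at 509.7 and 1444 FPKM, and carried the summed gland level there (1958 FPKM, against 22.7 to 306.3 in the other control libraries and 24.8 to 58.2 in Nr2f2 d/d). Foxa2, a transcription factor of the glands, and Cxcl15 were at their lowest of the 8 libraries in control replicate 2, at 3.24 and 1.18 FPKM. The part of any of these in the Il17rb level was not tested.

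The IL17 family ligands were scarce except for Il17d, which had 4.20, 5.49, 5.08 and 5.30 FPKM in the controls and 5.35, 5.63, 6.75 and 4.30 in Nr2f2 d/d, with overlapping groups (log2 fold change 0.11, adjusted p = 0.669). Il17b, a ligand of IL17RB, was under the filter but had 2, 2, 5 and 6 fragments in the controls and 8, 9, 17 and 21 in Nr2f2 d/d. In FPKM this was 0.046, 0.047, 0.093 and 0.141 against 0.187, 0.182, 0.265 and 0.334, without overlap (exact permutation p = 0.0286, 0.223 after adjustment). A share of 6.83% of its 76-base stretches also occurs in transcripts of Gm38165. Il17a, the inflammatory namesake of the family, had 1 fragment in the 4 control libraries together and 2 in the 4 Nr2f2 d/d libraries together, the worth of 3 being 0.0417 FPKM in the smallest library, so that any difference was not detectable at this depth. Il25, the other ligand of IL17RB, had 17 fragments in the controls and 16 in Nr2f2 d/d. In FPKM, which allows for depth, its means were 0.0615 in the controls and 0.046 in Nr2f2 d/d, with overlapping groups.

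In the IL1 family most fitted differences lay above 0. Log2 fold changes were above 0 for 11 of the 13 tested members, with a median of 0.45, and for the 6 tested ligands the median was 0.72. Over all genes tested 46.7% lay above 0. Of the 13, Il33 and Il18bp had an unadjusted p under 0.05, a smaller share than the 21.2% of all genes. Il33, an alarmin kept in the nuclei of stromal and epithelial cells, had 1.43, 1.39, 0.974 and 1.61 FPKM in the controls and 4.52, 3.17, 3.92 and 0.994 in Nr2f2 d/d. Nr2f2 d/d replicate 4 lay at the bottom of the control range, and the other 3 were above every control. The log2 fold change was 0.86 (95% interval 0.03 to 1.68, adjusted p = 0.222), and without that library it was 1.24 with an adjusted p of 0.0214, against up to 0.4 with another library left out. Il1rl1, the receptor of IL33, had means of 0.151 and 0.162 FPKM in control and Nr2f2 d/d uteri, under the filter. The innate lymphoid and mast cell markers, on cells known to bear that receptor, had summed levels of 21.0 to 34.0 and 15.2 to 22.7 FPKM in the controls and of 7.54 to 36.1 and 12.1 to 13.4 FPKM in Nr2f2 d/d. The mast cell sum was mostly Kit, which other cells also make, with 12.4 to 19.96 FPKM in the controls and 9.14 to 9.71 in Nr2f2 d/d (adjusted p = 0.0629), while Cpa3, Mcpt4, Tpsb2 and Cma1 had log2 fold changes of -0.17 to 0.02. The innate lymphoid sum was mostly Areg, Klrg1 and Hpgds, which other cells make too. The summed epithelial and stromal markers were higher in every Nr2f2 d/d library than in any control, also in replicate 4, where Il33 was low (644.8 and 1821 FPKM). The part of any of these cells in the Il33 level was not tested.

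The brakes of the family were measured beside its ligands. Il18bp, a secreted protein that neutralizes IL18, had 7.82, 6.57, 6.93 and 4.89 FPKM in the controls and 11.1, 7.51, 11.3 and 7.499 in Nr2f2 d/d, where replicates 1 and 3 were high and replicates 2 and 4 lay within the control range (log2 fold change 0.47, adjusted p = 0.198). Its ligand Il18 had 3.72 ± 0.554 and 4.49 ± 0.564 FPKM (SD, n = 4 each in control and Nr2f2 d/d uteri). Casp1, the protease that matures IL1 beta and IL18, had 14.6 ± 1.47 FPKM in the controls and 19.9 ± 1.85 in Nr2f2 d/d (SD, n = 4 each) without overlap and with an adjusted p of 0.056, in a list of processing genes in which 0 of 7 tested passed 0.05 and 2 had an unadjusted p under 0.05, against 21.2% of all genes. The most abundant ligand, Il1f8, had 13.2, 3.62, 8.201 and 3.79 FPKM in the controls and 12.8, 8.75, 14.7 and 8.53 in Nr2f2 d/d, with the first control library inside the Nr2f2 d/d range (log2 fold change 0.75, adjusted p = 0.316). The most abundant receptor, Il1r1, had 12.1, 9.66, 15.8 and 19.3 FPKM in the controls and 22.01, 11.9, 11.6 and 16.4 in Nr2f2 d/d, overlapping (log2 fold change 0.12, adjusted p = 0.832).

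Several IL1 and IL10 family genes were high in the same Nr2f2 d/d mice, replicates 1 and 3. These genes were picked after their values were seen and are a description. Il1f6, which encodes the epithelial alarmin IL36 alpha, had 0.090, 2.52, 3.10 and 0.092 FPKM in the controls and 9.48, 0.73, 12.1 and 0.10 in Nr2f2 d/d. Il1rn, the IL1 receptor antagonist, had at most 0.381 FPKM in the controls and 0.62, 0.375, 0.686 and 0.225 in Nr2f2 d/d, and the decoy receptor Il1r2 at most 0.871 in the controls and 1.405, 0.584, 1.75 and 0.591 in Nr2f2 d/d. Il1b, the inflammatory IL1 beta, had 0.822, 0.253, 1.047 and 0.892 FPKM in the controls and 2.77, 0.821, 1.53 and 1.13 in Nr2f2 d/d. Il22ra1, the epithelial receptor chain of IL22, reached 0.848 and 1.10 FPKM in replicates 1 and 3, against 0.282 and 0.197 in replicates 2 and 4 and at most 0.229 in the controls. Replicates 2 and 4 of Nr2f2 d/d lay within the control range in Il1f6 and Il1r2.

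Of 6 neutrophil markers, S100a8, S100a9, Ly6g and Cxcr2 had their highest values in the same 2 libraries. The sum of the list, of which 4 genes were tested and none was at 0, was 40.8 and 42.2 FPKM in Nr2f2 d/d replicates 1 and 3, 18.7 and 21.4 in replicates 2 and 4, and 3.67 to 21.4 in the controls. In Nr2f2 d/d most of that sum was S100a8 and S100a9, the calprotectin genes of neutrophils and inflamed epithelium. The list did not move as one: Csf3r was highest in Nr2f2 d/d replicate 1, at 3.79 FPKM, but had 2.68 in Nr2f2 d/d replicate 3 and 3.19 in control replicate 3, and Retnlg had 0.729 to 4.73 FPKM in the controls and 0.266 to 0.772 in Nr2f2 d/d (adjusted p = 0.131). Ly6g, which defines neutrophils, had 0.966 and 1.45 FPKM in replicates 1 and 3 and at most 0.362 in the other six. S100a8 and S100a9 had adjusted p-values of 0.0689 and 0.0912 with groups that did not overlap. Of 9 tested genes listed as responding to IL17 and IL1, 0 had an adjusted p under 0.05 and 3 had an unadjusted p under 0.05, against 21.2% of all genes, among them the same S100a8 and S100a9. The part of neutrophils in these levels was not tested.

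**Figure D3:**
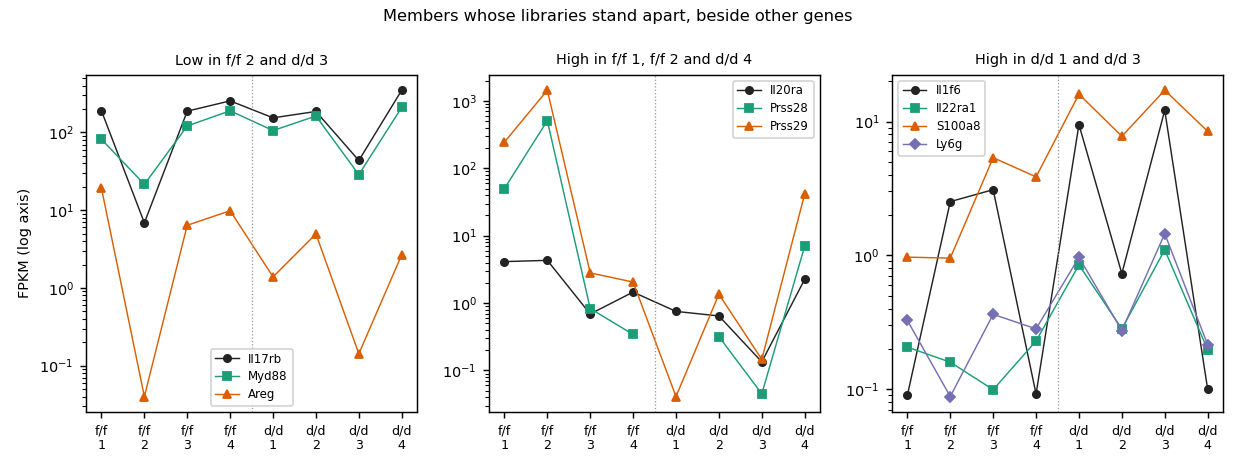
FPKM (log axis) in each of the 8 libraries of members whose libraries stood apart, beside other genes that were high or low in the same libraries. Lines join the points of 1 gene and mark no order, and values listed at 0 are not drawn. Il17rb, Myd88 and Areg are low in control replicate 2 and Nr2f2 d/d replicate 3, Il20ra and the gland proteases are high in control replicates 1 and 2 and Nr2f2 d/d replicate 4, and Il1f6 and Il22ra1 are high with Ly6g in Nr2f2 d/d replicates 1 and 3.

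In the IL10 family the chains that read IL20 and its relatives had fitted differences of opposite sign, with neither under the adjusted threshold. Il20rb, the chain shared by the receptors of IL19, IL20 and IL24, had 3.68, 4.14, 2.38 and 2.49 FPKM in the controls and 4.34, 3.44, 5.17 and 4.83 in Nr2f2 d/d. Nr2f2 d/d replicate 2 lay within the control range (log2 fold change 0.45, adjusted p = 0.222). Its partner Il20ra, picked after its values were seen, had 4.12, 4.31, 0.688 and 1.46 FPKM in the controls and 0.752, 0.644, 0.134 and 2.25 in Nr2f2 d/d, the lowest log2 fold change of the set at -1.09, with a 95% interval of -2.40 to 0.21. It was highest in the libraries with the most Prss29, a gland protease: 244.3 and 1444 FPKM in control replicates 1 and 2, 41.6 in Nr2f2 d/d replicate 4 and at most 2.80 in the other five. The ligand Il20 was listed at 0 in all 4 Nr2f2 d/d libraries and in 1 control library, with 0.015, 0.157 and 0.062 FPKM in the other control libraries. Il24 had 28 fragments in Nr2f2 d/d replicate 3 and 0 to 2 in every other library.

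Il10, the principal ligand by which lymphocytes and macrophages restrain inflammation, had 9, 5, 13 and 9 fragments in the controls and 17, 16, 15 and 17 in Nr2f2 d/d. In FPKM these were 0.109, 0.062, 0.128 and 0.112 against 0.211, 0.172, 0.124 and 0.143. The groups overlapped by 1 library, Nr2f2 d/d replicate 3 (exact permutation p = 0.0571, 0.303 after adjustment). Its more abundant receptor chain, Il10rb, had 13.0, 19.1, 14.0 and 11.9 FPKM in the controls and 16.1, 14.8, 15.1 and 14.4 in Nr2f2 d/d, a log2 fold change of 0.08 with a 95% interval of -0.23 to 0.39. A share of 12.8% of its 76-base stretches also occurs in transcripts of Gm21970. Of the 5 listed genes that respond to IL10, 0 had an adjusted p under 0.05 and 0 an unadjusted p under 0.05, against 2.62% and 21.2% of all genes. Log2 fold changes were below 0 for 4 and above 0 for 1, with 46.7% of all genes above 0.

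In the IL12 family the shared receptor chain had higher values in Nr2f2 d/d and the IL27 receptor lower ones, with neither under the adjusted threshold. Il12rb1, the chain that IL12 and IL23 share and that T and NK cells bear, had 0.815, 1.19, 1.01 and 1.047 FPKM in the controls and 2.28, 1.64, 1.23 and 2.36 in Nr2f2 d/d. Every Nr2f2 d/d library was above every control, replicate 3 by the least (log2 fold change 0.62, 95% interval 0.22 to 1.03, adjusted p = 0.103). The specific chain Il12rb2 had 0.544 ± 0.0854 and 0.5005 ± 0.0949 FPKM (SD, n = 4 each in control and Nr2f2 d/d uteri), although 36.9% of its 76-base stretches also occur in other transcripts. Il27ra, the chain specific to IL27, had 2.41, 2.92, 2.48 and 2.15 FPKM in the controls and 1.77, 1.76, 1.31 and 2.21 in Nr2f2 d/d, where replicate 4 alone entered the control range (log2 fold change -0.41, adjusted p = 0.151). The only tested ligand, Il23a, had 0.408, 1.06, 0.340 and 0.658 FPKM in the controls and 0.357, 0.485, 0.230 and 0.867 in Nr2f2 d/d, overlapping.

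**Figure D4:**
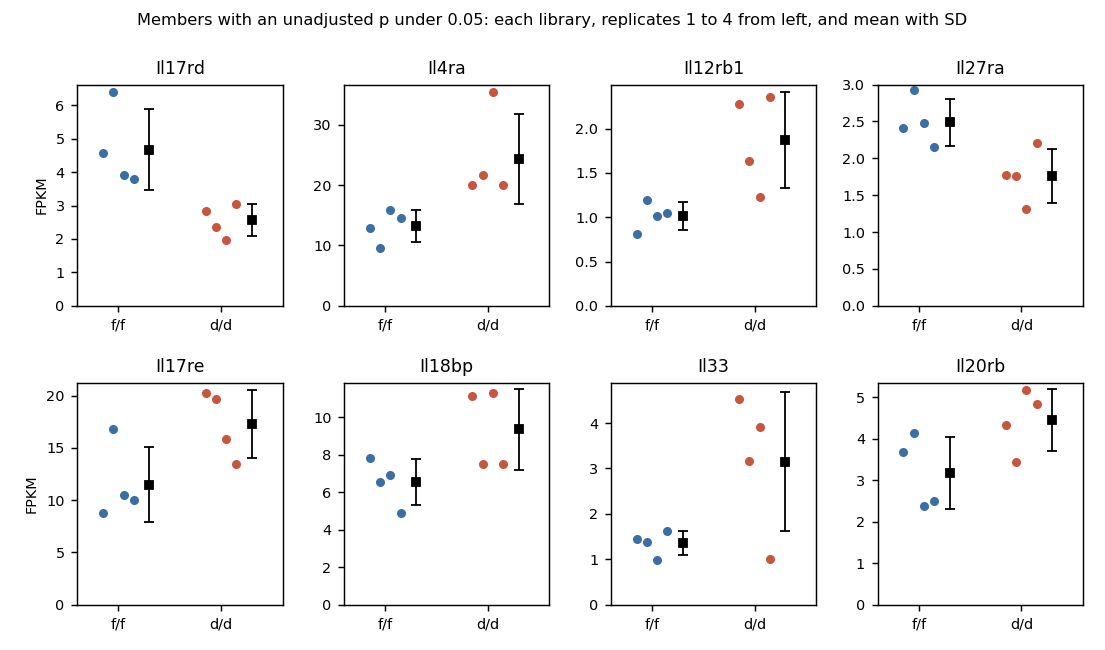
FPKM of the 8 members with an unadjusted limma p under 0.05, one panel per gene. Circles are libraries, replicates 1 to 4 from left to right within each genotype, and squares with bars are means with SD (n = 4). The groups separate in Il17rd, Il4ra and Il12rb1, and Nr2f2 d/d replicate 4 is the low library of Il33.

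Of the T and NK cell markers, all 10 were tested and had a log2 fold change above 0, against 46.7% of all genes. Cd3d was the 1 that rose with an adjusted p under 0.05, against 1.09% of all genes, and none was at 0. The list was split: 4 of the 10, Cd3e, Cd3d, Cd3g and Gzma, had an unadjusted limma p under 0.05, against 21.2% of all genes. Their groups did not overlap. Cd2, Cd247, Lck, Nkg7, Ncr1 and Klrb1c had overlapping groups and unadjusted limma p-values of 0.404 to 0.659. The sum of the 10 markers was 45.8 to 69.2 FPKM in the controls and 94.3, 125.1, 52.8 and 258.4 in Nr2f2 d/d, with overlapping groups. Gzma, a granzyme of cytotoxic cells, made up much of the sum in Nr2f2 d/d, with 22.4 to 149.6 FPKM there and 6.47 to 13.3 in the controls. Among the Nr2f2 d/d libraries 8 of the 10 markers were lowest in replicate 3, as Il12rb1 was, and the other two, Cd3d and Cd3e, in replicate 2. The part of these cells in the Il12rb1 level was not tested. Il5, the eosinophil growth factor, had 10, 15, 12 and 5 fragments in the controls and 18, 14, 20 and 27 in Nr2f2 d/d. In FPKM its means were 0.104 in the controls and 0.163 in Nr2f2 d/d, with overlapping groups (exact permutation p = 0.0857). The eosinophil markers summed to 0.543 to 1.52 FPKM in the controls and 0.625 to 1.71 in Nr2f2 d/d, with their defining gene Epx at most 0.026. A share of 18.4% of the 76-base stretches of Il5 also occurs in transcripts of Gm12214.

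Members of the IL6 and IL3 families and the rest followed no common direction. Il11ra1 had 33.8, 27.4, 39.997 and 38.9 FPKM in the controls and 37.2, 44.3, 49.96 and 37.6 in Nr2f2 d/d (log2 fold change 0.27, adjusted p = 0.319), and its ligand Il11 had 0.15, 0.227, 0.179 and 0.186 against 0.161, 0.272, 0.237 and 0.197 FPKM. Both sets overlapped. Il6, an inflammatory and acute-phase cytokine, had 10, 0, 31 and 25 fragments in the controls and 7, 8, 12 and 7 in Nr2f2 d/d, or 0.139, 0.000, 0.349 and 0.356 against 0.099, 0.098, 0.113 and 0.068 FPKM. Control replicate 2, with none, was the only control not above every Nr2f2 d/d library (exact permutation p = 0.314). Without it the groups cannot overlap, so its exact permutation p of 0.0286, the smallest that 3 against 4 can give, followed from that choice. With another library left out the exact permutation p was up to 0.6. Of the 9 tested STAT3 targets that IL6 family cytokines induce, 0 had an adjusted p under 0.05 and 2 an unadjusted p under 0.05, against 21.2% of all genes. Il3ra had 12.3, 13.6, 11.6 and 11.0 FPKM in the controls and 11.6, 11.2, 13.4 and 13.9 in Nr2f2 d/d, a log2 fold change of 0.04 with a 95% interval of -0.18 to 0.26. Its signalling partner Csf2rb, which carries no interleukin symbol, had 7.80 ± 2.35 FPKM (SD, n = 4) in the controls and 4.48 ± 0.761 (SD, n = 4) in Nr2f2 d/d (adjusted p = 0.152), and 0 of the 10 tested genes of that list of partners had an adjusted p under 0.05, with 1 at an unadjusted p under 0.05, against 21.2% of all genes. Il16, a chemoattractant for CD4 cells, had 3.23, 4.34, 4.74 and 7.36 FPKM in the controls and 4.81, 4.89, 3.96 and 7.47 in Nr2f2 d/d, with overlapping groups, and 14.5% of its 76-base stretches are shared with other transcripts.

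The members not described above gave no call. The other 10 tested members (Il1f9, Il18r1, Il18rap, Il1rap, Il1rl2, Il21r, Il6ra, Il31ra, Il10ra and Il34) had log2 fold changes of -0.27 to 0.45 and adjusted p-values of 0.374 or more. The other 17 members measured under the filter had exact permutation p-values from 0.0857, in Il12b and Il23r, to 1.0 and overlapping groups. Il12b, the shared subunit of IL12 and IL23, had 0.006, 0.032, 0.041 and 0.045 FPKM in the controls and 0.071, 0.14, 0.09 and 0.035 in Nr2f2 d/d. Il23r, the specific chain for IL23, had 4, 10, 11 and 14 fragments in the controls (mean 0.0595 FPKM) and 21, 14, 29 and 20 in Nr2f2 d/d (mean 0.108 FPKM). Both overlapped between the groups. Il7r, the IL7 receptor of lymphocytes, had 0.173 to 0.448 FPKM in the controls and 0.343 to 0.832 in Nr2f2 d/d (exact permutation p = 0.114).

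**Figure D5:**
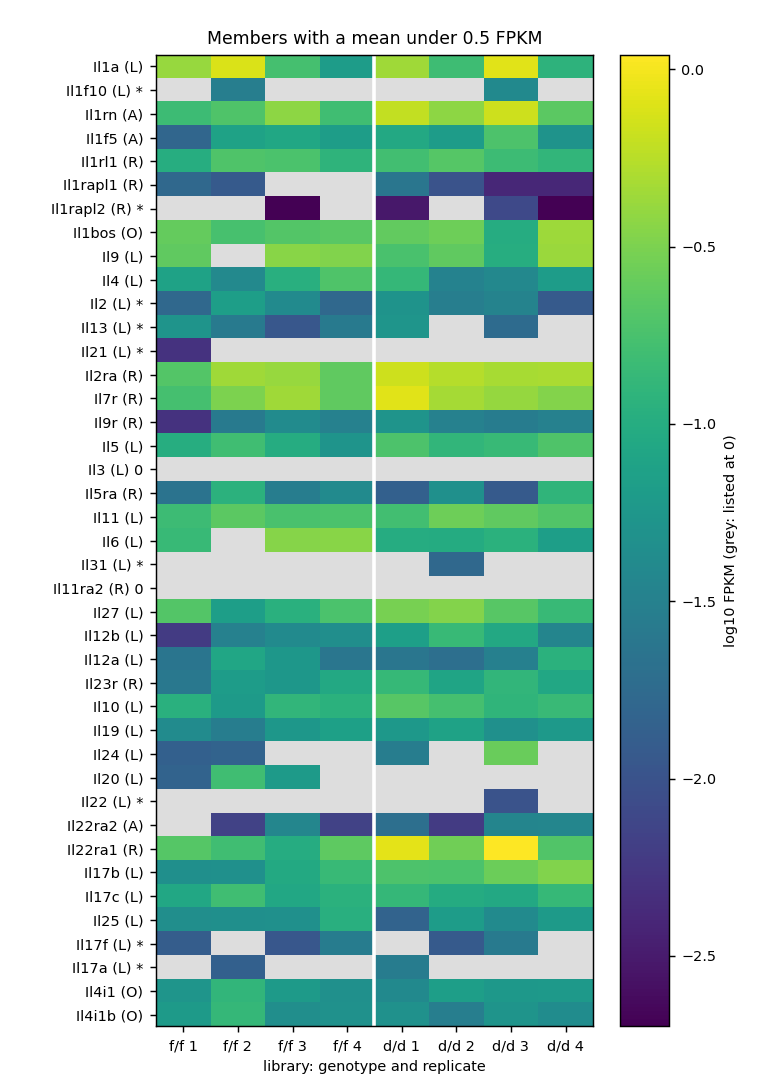
FPKM (colour, log10 scale, grey where listed at 0) of the 41 members with a mean under 0.5 FPKM, in each of the 8 libraries (L ligand, A antagonist or decoy, R receptor, O other). An asterisk marks the 9 members with group means under the worth of 3 fragments in both groups and a 0 the 2 members listed at 0 throughout. Il17b and Il2ra are brighter in all 4 Nr2f2 d/d libraries, and Il24 stands out in Nr2f2 d/d replicate 3.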

How the data were processed

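Whole uteri of 4 Nr2f2 f/f and 4 Nr2f2 d/d mice were compared, with groups and replicate numbers from the sample titles. The authors deposited FPKM: 76-base read pairs were trimmed (cutadapt 1.12), placed on mm10 (STAR 2.5.2b) and assigned to genes (featureCounts 1.5.0-p1), and the submitters' processing notes also name Cufflinks 2.0.2. The annotation, the strand setting and the FPKM formula are not given in the sources used here. The TruSeq kit of this version does not mark strand, so reads of overlapping genes cannot be told apart. The study's methods tested counts with DESeq2, which does not suit FPKM and was not run. All 8 columns were matched by the names in the sample descriptions, which number control replicate 4 as 5 and Nr2f2 d/d replicates 2, 3 and 4 as 3, 4 and 5.

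Fitting used log2(FPKM + 0.5), a scale on which differences of low genes shrink. Genes averaging 0.5 FPKM or more were tested with limma 3.58.1 in R 4.3.3 (lmFit, eBayes with trend, two-sided, Benjamini-Hochberg over 14323 genes). Members were also compared by two-sided exact permutation over the 70 arrangements of 4 and 4, whose smallest p is 0.0286, adjusted over all genes with any fragments. The replicates are single mice. Both tests were tested on simulated data.

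Depth was recovered from genes of 1 exon and RefSeq length: at 1 total per library 85.8% to 92.5% of their values came out as whole fragments (within 0.1), against 15.7% to 17.1% at other totals. The totals were 61400000 to 77850000 fragments in Nr2f2 f/f and 61750000 to 92650000 in Nr2f2 d/d. Fragments of members were rounded within 0.15 and are given where no library exceeds 40. Floors of 3 fragments cover counting error only. Symbols of 77 of 78 members matched GENCODE vM21 on mm10, and promoters came from RefSeq for 63.

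The named members were those with an unadjusted p under 0.05, those with nonoverlapping groups, the most abundant ligand and receptor of each family, and Il33, Il6, Il17a, Il4, Il10 and Il13. Il1f6, Il1rn, Il1r2, Il1b, Il20, Il20ra, Il22ra1 and Il24 were added after their values were seen, as were Il11ra2, Il12rb2, Il13ra1, Il17ra, Il17rc, Il18, Il1rl1 and Il25, named as partners, and Il7r, Il12b and Il23r. Values of some listed genes are not reported here. Members, lists and tests were chosen with earlier results of these data known. The alternatives were other added values (0.1 and 1), no filter or a filter at 1 FPKM, median-ratio and quantile scaling, eBayes without trend or robust, the replicate number as a block, and each library left out.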

Additional observations from a re-analysis of the deposited data

Results flagged for a closer look

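Among 65 groups of 4 libraries examined for 33 named members on the log2 scale, 3 had a library whose gap to the nearest other was above the 95% critical value of Dixon's test for that number. Chance alone gives about 1 in 20. Il17rb had 6.88 FPKM in Nr2f2 f/f replicate 2, with a gap of 0.914 of the range. Il4ra had 35.4 FPKM in Nr2f2 d/d replicate 3, above its group by 0.854 of the range. Il24 had 0.261 FPKM in Nr2f2 d/d replicate 3, with 0.866 of the range, but it was named after this value was seen, so the rate by chance does not apply to it.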

How the results depend on the processing

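The count of members with an adjusted p under 0.05 was 0 under every alternative with all libraries and 0 to 1 with 1 library left out: Il33 without Nr2f2 d/d replicate 4 and Il17re without Nr2f2 f/f replicate 2. The count at an unadjusted p under 0.05 and a fold of at least 1.4, 5 as reported, was 8 with 0.1 added before the log2 and 5 or 6 under the other alternatives. It was 3 to 8 with 1 library left out, with the 3 without Nr2f2 d/d replicate 1 and the 8 without Nr2f2 d/d replicate 4, and the cause was not tested. Il4ra, Il12rb1 and Il17rd were in it each time. Il33 was not in it with no filter, where Il22ra1 took its place, nor with the replicate block, nor in 7 of the 8 fits without 1 library. The median log2 fold change of the tested members was 0.102 to 0.145 over the alternatives with all libraries and a filter, and 0.05 to 0.16 with 1 library left out. With no filter it was 0.04, but over 76 members. The sign turned with 1 library left out for Il17rb (-0.53 to 1.25), Il16 (-0.052 to 0.31), Il1r1 (-0.064 to 0.27), Il3ra (-0.011 to 0.095) and Il10rb (-0.005 to 0.21), none of which had passed a test. Of the values recomputed for single named members, 452 kept their direction and their side of 0.05 (adjusted p for tested members, exact permutation p for the rest), 8 turned sign, 6 lost and 5 gained a p under 0.05. Il17b (0.29 to 0.40) and Il2ra (0.28 to 0.42) kept their direction, but their exact permutation p rose above 0.05 without replicate 3 or 4 of Nr2f2 d/d for Il17b and without any 1 of the 4 Nr2f2 d/d libraries for Il2ra, while that of Il10 and Il22ra1 was 0.0286 without Nr2f2 d/d replicates 3 and 4 respectively, and that of Il6 without Nr2f2 f/f replicate 2.

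With the replicate block the counts were 0 and 6 and the median was 0.11. Libraries with the same number in their titles did not deviate together (r = -0.204, -0.172, 0.0452 and -0.0403 across genes). Of the numbers in the sample descriptions only 1 pair, at 0.149, was above 0.1. Pairs with different numbers ran from -0.321 to 0.279, and so few pairs cannot show whether libraries of the same number share a batch. The block changed no adjusted call, but there were 0 to lose. At the 1.4-fold threshold Il33 left the list with the block, and Il1b and Il1f8 entered it.

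Groups of 4 and FPKM without counts limit these data. Fold changes of members near 0.5 FPKM are understated, and members under the worth of 3 fragments in both groups cannot show a difference. All p-values rest on 4 mice of each genotype. Those of limma use a variance drawn towards a trend over all genes tested, and those of the permutation test use the 70 arrangements.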
